A study of Populus ussuriensis with 12 samples.

Results

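Leaves of poplar plants that overexpress a microRNA, Pu-miR172d, were compared with wild-type leaves after both had gone 4 days without water. Of the 35747 genes in the deposited expression table, 22106 reached at least 1 FPKM (fragments per kilobase of transcript with mapped depth divided out) in at least 3 of the 6 drought libraries, and these 22106 genes are described here. The rule left 1117 genes that reached 1 FPKM in exactly 3 of the 6 libraries just inside and 1148 that reached it in 2 libraries just outside. Of the genes kept, 18289 reached it in all 6 libraries. Another 235 reached it in all 3 overexpressing and no wild-type library, and 401 in all 3 wild-type and no overexpressing library. Those 2 sets of genes entered through one genotype and so had to differ.

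The species is Populus ussuriensis, and the RNA came from leaves 7 and 8 counted from the shoot tip of 70-day-old plants. All plants had spent 4 weeks in vitro and then grew one to a 300 ml pot of sterilised soil under a 16 h day and an 8 h night at 25 °C. The groups are WT and Pu-miR172d-OE (written OE), each either watered throughout or left unwatered for 4 days, with 3 libraries in each of the 4 groups. The promoter of the transgene, the number of independent lines, and whether a library pools several plants were not stated by the sources at hand. Nothing says that the libraries come from separate plants, so p-values measure the spread between these libraries, which may be technical. Drought libraries are numbered 4, 5 and 6 in each genotype, and values below follow that order.

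Plant miR172 binds messenger RNAs of APETALA2-type transcription factors and lowers their output by cleavage and by blocking translation, and in Arabidopsis it is best known for timing the juvenile-to-adult change and flowering. Water loss closes stomata through abscisic acid (ABA), and as it deepens leaves usually make less of the photosynthetic apparatus and more of the proteins and sugars that protect cells. Leaves of plants of unequal size or transpiration dry a pot at unequal rates. Soil and leaf water status were not analysed here, so a difference in genotype and a difference in the drought reached after 4 days cannot be told apart. Gene names are the closest UniProt match in the deposited annotation, and the roles given below are those of the Arabidopsis or other plant protein of that name.

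Depth recovered from the FPKM steps was 11602784 to 12131416 fragments in the drought libraries. On the first principal component of the 6 libraries, which held 64.7% of the variance, the WT libraries lay at -79.4, -59.0 and -42.4 and the OE libraries at 48.3, 95.9 and 36.5. WT library 6 and OE library 5 stood apart from their partners on the second component (20.5% of the variance), at -65.2 and 30.4. OE libraries 4 and 6 were the most alike pair of replicates, with a chi-square per gene of 3.90 against 25.5 to 71.6 for the other pairs, and no pair was identical. Counts of genes below are therefore followed, where it matters, by the count without a library.

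Genes were tested with limma on log2(FPKM + 1) in all 12 libraries, and a gene passed at a Benjamini-Hochberg adjusted p under 0.05 over 25373 tested genes. In drought, 2324 of the 22106 genes were higher in OE (10.5%) and 4970 were lower (22.5%), which is 33.0% in either direction. Over all tested genes the shares were 9.23%, 20.4% and 29.6%. A log2 difference of at least 1 was also reached by 1348 of the higher genes (6.1%) and 2021 of the lower ones (9.14%). Differences over 4-fold on this scale were found for 357 higher and 244 lower genes. In 3275 genes (14.8%) every OE library was above every WT library, and in 7036 (31.8%) every OE library was below, together 46.6%. The number of lower genes was 2491 without WT library 4 and 2661 without OE library 5. With only the drought groups fitted, 1643 genes were higher and 2226 lower.

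The whole distribution was displaced toward lower values in OE. The median log2 difference over the 22106 genes was -0.25 in the deposited FPKM, -0.21 when libraries were scaled by the sum outside the 100 most abundant genes, and 0.02 after median-of-ratios scaling. With median-of-ratios scaling the split was 3833 higher (17.3%) and 2491 lower genes (11.3%), so 60.6% of the calls were higher against 31.9% as deposited. All 2324 higher genes were also called higher under median-of-ratios scaling, 2491 genes were lower under both, and none was called in opposite directions. Gene lists are therefore read against the median of -0.25, with the counts under both scalings given. RNA per leaf was not measured, and in bulk leaf RNA fewer cells of a type and less RNA per cell cannot be told apart.

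Watered leaves of the same genotypes differed much less. There, 16 genes were higher (0.0724%) and 2 lower (0.00905%) in OE, which is 0.0814% of the 22106 in either direction, against 0.138% of all tested genes. The watered count of 18 was 55 without WT drought library 6, 5 without OE drought library 4 and 8 without OE drought library 6, which enter through the shared estimate of spread. The genotype difference itself differed between drought and watered leaves for 3662 genes (16.6%, against 15.1% of all tested genes), of which 1137 (5.14%) had the larger value in drought and 2525 (11.4%) the smaller. Of the 2324 higher genes, 1103 passed that test, as did 2236 of the 4970 lower genes. The number of genes passing it ranged from 1890 without WT library 4 to 6379 without WT library 6, and was also more than 1.5 times lower without WT library 5 (2344), OE library 4 (2213) or OE library 5 (2325).

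**Figure D1:**
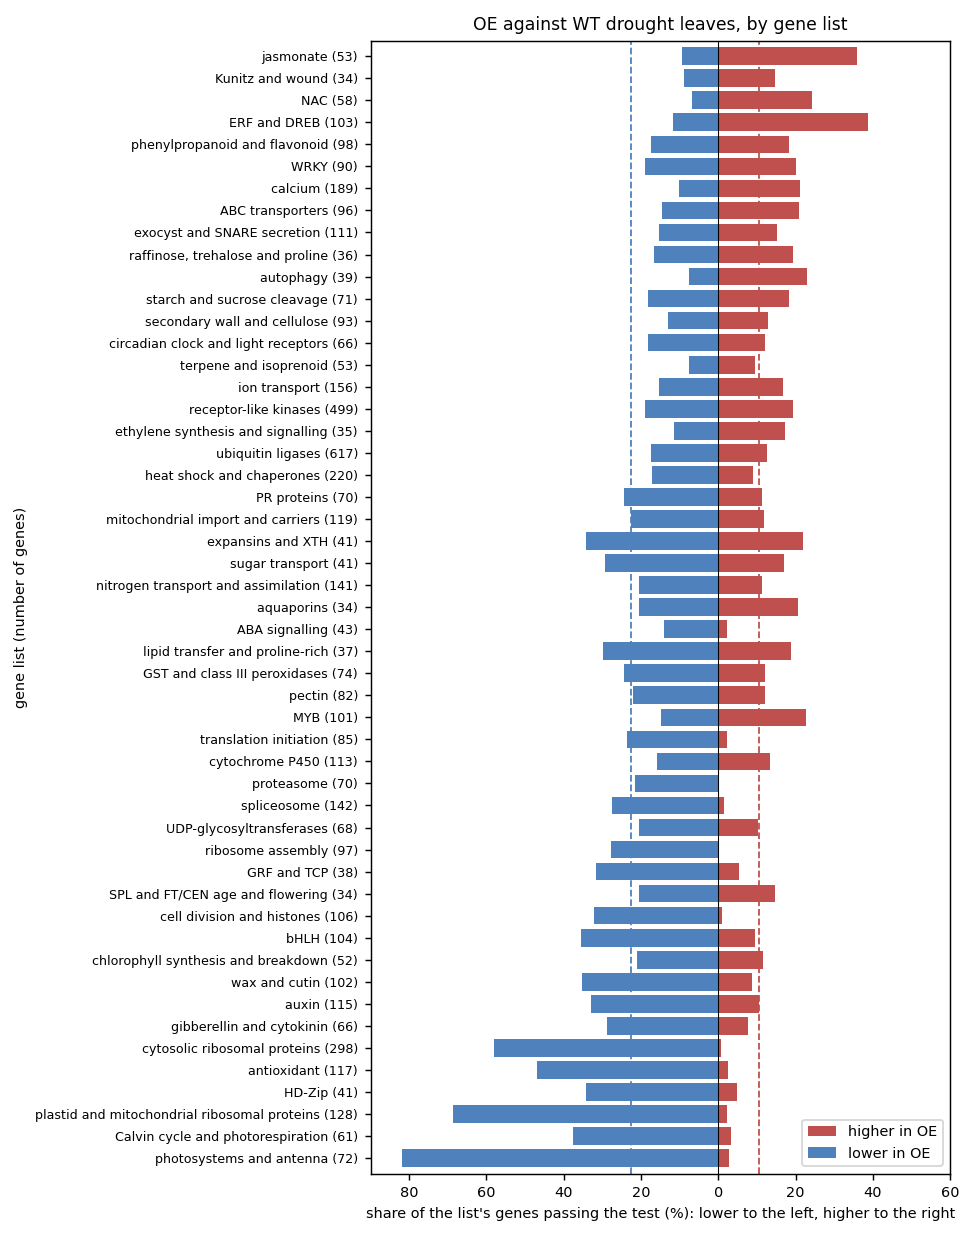
Share of each gene list that passed the test in OE against WT drought leaves, for lists of at least 30 genes, ordered by their median difference (jasmonate at the top, photosystems at the bottom). Bars to the left are genes lower in OE and bars to the right genes higher in OE, in percent; dashed lines mark 22.5% lower and 10.5% higher over all 22106 genes. The photosystem, organelle ribosome and cytosolic ribosome bars reach furthest left, and the ERF and jasmonate bars furthest right.

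Photosystem genes had the largest share of called genes among the lists of at least 30 genes. Of 72 genes for photosystem subunits, antenna proteins, cytochrome b6-f and plastocyanin, 59 were lower in OE and 2 were higher, with a median log2 difference of -1.99 against -0.25 for all genes (3 higher and 56 lower with median-of-ratios scaling). Leaving out 1 library gave 55 (without WT library 4) to 63 (without OE library 6) lower genes. With only the drought groups fitted, 2 of the 72 were higher and 36 lower. Their summed level was 8731, 9369 and 10525 FPKM in the WT drought libraries and 2885, 803 and 3686 FPKM in the OE drought libraries. In watered leaves the sums were 76439, 79818 and 70212 FPKM in WT and 75072, 52236 and 63294 FPKM in OE. Both genotypes thus had far less of these transcripts in drought, and all 3 OE drought libraries lay below all 3 WT drought libraries. OE library 5 was the lowest.

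Chlorophyll a-b binding proteins carry the antenna chlorophyll. Antenna protein 8 (Potri.014G172400) stood at 98.7, 259.6 and 274 FPKM in WT and 27.8, 2.92 and 42.2 FPKM in OE (-3.51 ± 0.70, adjusted p = 0.00493, as OE minus WT in log2 ± SE here and below). Antenna protein 3C (Potri.005G239300) showed the same order, at 306, 864 and 900.4 FPKM in WT and 102, 6.32 and 134 FPKM in OE (-3.73 ± 0.87, adjusted p = 0.00937). OE library 5 held far less of both than its partners, and without it or without any other single library both remained called. The call for antenna protein 3C was lost with only the drought groups fitted (adjusted p = 0.0515) and with the replicate number as a block (adjusted p = 0.0548). A small subunit of photosystem II (Potri.001G256900), at 91.2, 88.4 and 91.1 FPKM in WT and 10.7, 2.92 and 19.7 FPKM in OE, was more even across the WT libraries (-3.21 ± 0.44, adjusted p = 6.58e-04). Chloroplastic carbonic anhydrase (Potri.001G348900), which interconverts CO2 and bicarbonate, was tight within both genotypes, at 28, 43.8 and 36.1 FPKM in WT and 3.01, 2.82 and 2.72 FPKM in OE (-3.24 ± 0.23, adjusted p = 1.53e-05). Its mean in watered leaves was 2110.4 FPKM in WT and 2009 FPKM in OE.

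Genes named for proteins that the plastid genome itself encodes did not follow the rest of the photosystem list. The 72 photosystem genes include 8 such names, of which 2 were higher in OE and none lower (median log2 difference 0.69), while 59 of the other 64 were lower and none higher (median -2.07). Photosystem I apoprotein A1 (Potri.013G141800), a core protein of photosystem I, stood at 2.30, 0.574 and 1.11 FPKM in WT and 7.32, 14.4 and 3.79 FPKM in OE (1.94 ± 0.43, adjusted p = 0.00791). The large chain of Rubisco (Potri.T005800), the carbon-fixing enzyme, stood at 1.32, 0.0939 and 0.912 FPKM in WT and 4.70, 10.4 and 2.58 FPKM in OE (1.86 ± 0.48, adjusted p = 0.0151). The call was lost without WT library 5 or OE library 5 (adjusted p = 0.0551 to 0.0656), and with the replicate number as a block (0.0558). Plastid ribosomal protein S12 (Potri.013G139000) stood at 2.60, 0.742 and 0.360 FPKM in WT and 4.64, 7.84 and 3.63 FPKM in OE (1.59 ± 0.34, adjusted p = 0.00694). In all 3 the OE libraries lay above the WT libraries and OE library 5 was the highest, the reverse of its place in the antenna genes. These are low values, and reads from plastid transcripts and from such near-identical copies in the annotation cannot be separated here.

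Carbon fixation and pigment synthesis moved less evenly. Of 61 genes of the Calvin cycle and photorespiration, 23 were lower and 2 higher (median -0.90; 6 higher and 10 lower with median-of-ratios scaling), and leaving out 1 library gave 7 (without OE library 5) to 31 (without OE library 6) lower genes. It was also 15 without WT library 4, 15 without WT library 5 and 13 without WT library 6. With only the drought groups fitted, 2 of the 61 were higher and 5 lower. Rubisco activase (Potri.010G200500), which frees Rubisco of inhibitory sugars, stood at 89.8, 239.8 and 681 FPKM in WT and 62.3, 6.37 and 80 FPKM in OE (-2.87 ± 0.84, adjusted p = 0.0248). Here the call was lost without WT library 5, WT library 6 or OE library 5 (adjusted p = 0.0567 to 0.0804). It was also lost with only the drought groups fitted (adjusted p = 0.0872) and the replicate number as a block (0.0609). Chlorophyll synthesis and breakdown had 6 higher and 11 lower of 52 genes, near the background (7 higher and 7 lower with median-of-ratios scaling; 6 to 19 lower without WT library 4, OE library 5 or OE library 6). Within it, protochlorophyllide reductase (Potri.013G135500), the light-dependent step of chlorophyll synthesis, stood at 95.1, 78.2 and 80.1 FPKM in WT and 32.9, 11.6 and 38.4 FPKM in OE (-1.73 ± 0.34, adjusted p = 0.00483). Glutamyl-tRNA reductase 1 (Potri.009G080600), the entry step of tetrapyrrole synthesis, was higher in OE, at 0.655, 1.34 and 7.28 FPKM in WT and 40.9, 51.9 and 34.7 FPKM in OE (3.76 ± 0.45, adjusted p = 2.91e-04).

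**Figure D2:**
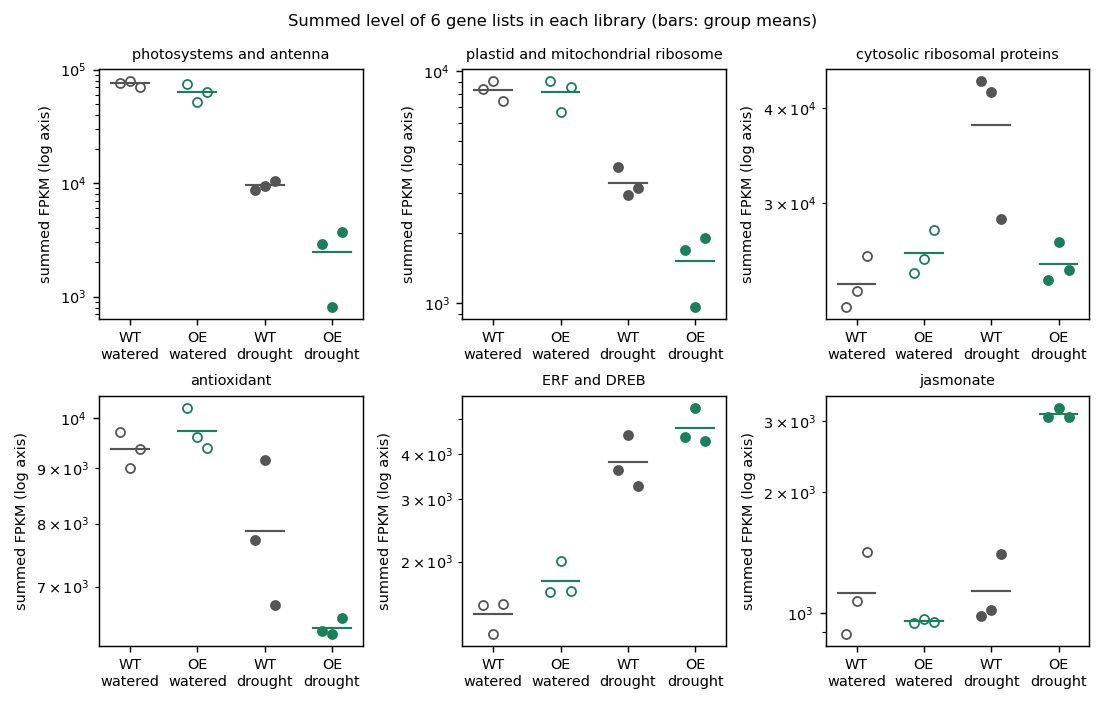
Summed FPKM (log axis) of 6 gene lists in each of the 12 libraries; open points are watered, filled points drought, grey WT and green OE, and bars are group means of 3 libraries. The photosystem and organelle ribosome sums are lowest in OE drought leaves, the cytosolic ribosome sum is highest in WT drought leaves, and the jasmonate sum is highest in OE drought leaves.

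Among ribosomal protein genes the organellar set held more lower genes than the background under both scalings. The cytosolic set did so in the deposited FPKM, but with median-of-ratios scaling its share of lower genes was near the 11.3% of all genes. Under that scaling only 3 of its 298 genes were higher, against 17.3% of all genes. Its median log2 difference was then -0.29, against 0.02 for all genes. Of 128 genes for plastid and mitochondrial ribosomal proteins, 88 were lower and 3 higher (median -0.88; 3 higher and 53 lower with median-of-ratios scaling). The number lower was 42 without WT library 4 and 50 without OE library 5. With only the drought groups fitted, 3 of the 128 were higher and 33 lower. Plastid ribosomal protein S16-1 (Potri.013G128200) is one of the lower genes, at 117, 98.3 and 84.3 FPKM in WT and 24.8, 14.2 and 33 FPKM in OE (-2.08 ± 0.27, adjusted p = 4.53e-04), with no overlap between genotypes.

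Of 298 genes for cytosolic ribosomal proteins, 173 were lower and 2 higher (median -0.60). This count depended on scaling, at 3 higher and 33 lower with median-of-ratios scaling. With only the drought groups fitted it was 2 higher and 52 lower. It also depended on the libraries, at 58 (without WT library 4) to 251 (without WT library 6), with 77 without WT library 5, 83 without OE library 4, 113 without OE library 5 and 112 without OE library 6. The summed level was 43479, 41999 and 28558 FPKM in WT and 23747, 26626 and 24483 FPKM in OE drought leaves. The corresponding watered sums were 21851, 22959.6 and 25559 FPKM in WT and 24278, 25308 and 27661 FPKM in OE. In the deposited FPKM, all 3 WT drought libraries lay above every watered library, and the OE drought libraries lay within the watered range. Neither part of this order holds under median-of-ratios scaling. Dividing the sums by those factors puts WT library 6 within the watered range and OE library 5 above it. Protein L13-2 of the large subunit (Potri.003G102800) had the largest fall of the set, at 29.8, 19.2 and 11 FPKM in WT and 6.17, 7.18 and 9.29 FPKM in OE (-1.21 ± 0.33, adjusted p = 0.0197). The call was lost without WT library 4, WT library 5, OE library 4 or OE library 5 (adjusted p = 0.0506 to 0.0816). It was also lost with median-of-ratios scaling (adjusted p = 0.0589), only the drought groups fitted (0.0520) and the replicate number as a block (0.0727). One gene for protein L19-1 (Potri.015G037100) rose from a low level, at 0.112, 0.780 and 0.649 FPKM in WT and 2.79, 3.81 and 1.53 FPKM in OE (1.27 ± 0.30, adjusted p = 0.00988).

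Lists for ribosome assembly, splicing, translation initiation and the proteasome held few higher genes. Ribosome assembly had 27 lower and no higher genes of 97 (0 higher and 11 lower with median-of-ratios scaling), a share of lower genes near the background of 22.5%. It had 9 to 16 lower without WT library 4 or OE library 5. A nucleolar protein of small nucleolar RNA complexes (Potri.005G045600) stood at 50.5, 34.8 and 21 FPKM in WT and 16, 13.2 and 16.5 FPKM in OE (-1.09 ± 0.25, adjusted p = 0.00903). Spliceosome genes (2 higher and 39 lower of 142), translation initiation factors (2 and 20 of 85) and proteasome genes (0 and 15 of 70) also held few higher genes. The shares of lower genes in the last 2 lists were near the background of 22.5%. For these 3 lists median-of-ratios scaling gave 10 higher and 9 lower, 10 and 2, and 3 and 2. Nor did the counts keep their size without single libraries. Spliceosome genes had 1 to 6 higher without WT library 4, WT library 5, WT library 6 or OE library 5 and 9 to 25 lower without WT library 4, WT library 5, OE library 4 or OE library 5. Initiation factors had 1 to 5 higher without WT library 4, WT library 5, WT library 6, OE library 4 or OE library 6 and 2 to 13 lower without WT library 4, WT library 5, OE library 4, OE library 5 or OE library 6. Proteasome genes had 3 higher without WT library 6 and 4 to 28 lower without WT library 4, WT library 5, WT library 6, OE library 4 or OE library 5. Among their members, a core protein of spliceosomal particles (small nuclear ribonucleoprotein G, Potri.006G211100) fell by 1.19 on the log2 scale and initiation factor 1A (Potri.002G031700) by 1.35. Splicing factor SR30 (Potri.005G024600) was higher by 1.02, and a subunit of an isoform of the cap-binding initiation complex (Potri.006G182100) by 0.87.

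**Figure D3:**
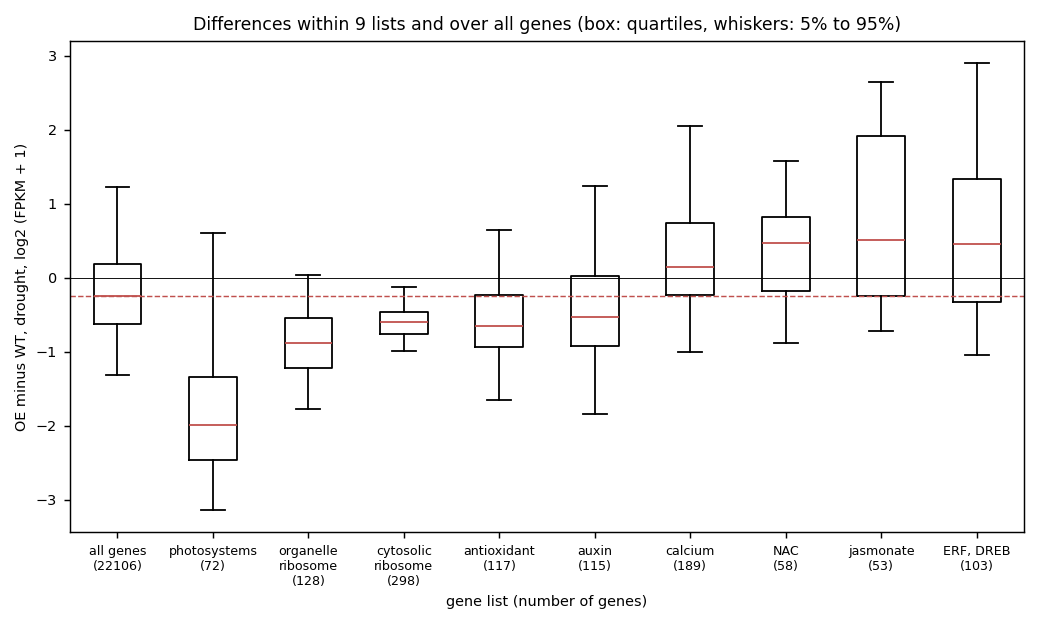
Log2 difference of OE minus WT in drought leaves for all 22106 genes and for 9 gene lists (boxes are quartiles, the red line the median, whiskers the 5th to 95th percentile of genes; the dashed line is the median of all genes). Photosystem genes have a median of -1.99 and cytosolic ribosomal genes form a narrow box at -0.60, while jasmonate and ERF boxes extend well above 0.

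Called antioxidant genes were nearly all lower. Of 117 genes for superoxide dismutases, catalases, ascorbate and glutathione enzymes, thioredoxins and glutaredoxins, 55 were lower, 3 higher and 59 not called (median -0.65; 9 higher and 28 lower with median-of-ratios scaling), and the number lower was 29 without WT library 4 and 31 without OE library 5. With only the drought groups fitted, 4 of the 117 were higher and 28 lower. Chloroplastic thioredoxin M (Potri.005G186800), which passes light-driven reducing power to enzymes, stood at 14.9, 19.1 and 32.8 FPKM in WT and 4.01, 0.807 and 4.48 FPKM in OE (-2.59 ± 0.38, adjusted p = 0.00102). A glutathione peroxidase that reduces lipid hydroperoxides (Potri.001G105200) was among the 3 higher genes, at 129, 159 and 115 FPKM in WT and 294, 370.0 and 279 FPKM in OE (1.22 ± 0.20, adjusted p = 0.00160). Class III peroxidases and glutathione transferases were near the background, with 9 higher and 18 lower of 74 (13 higher and 13 lower with median-of-ratios scaling). The abundant peroxidase 42 (Potri.004G015300) stood at 1094, 959 and 1012 FPKM in WT and 115, 79.7 and 125 FPKM in OE (-3.27 ± 0.27, adjusted p = 3.71e-05).

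Some genes of ethylene synthesis were higher in OE, while others were lower or not called. ACC synthase makes the ethylene precursor ACC, and ACC oxidase turns it into ethylene. Of 4 ACC synthase genes 2 were higher and none lower. ACC synthase 1 (Potri.002G163700) stood at 32.9, 53.1 and 60.1 FPKM in WT and 342, 632 and 262 FPKM in OE (3.0 ± 0.40, adjusted p = 5.27e-04). A less abundant copy (Potri.002G113900) stood at 1.52, 2.57 and 0.757 FPKM in WT and 3.09, 6.74 and 2.65 FPKM in OE (0.96 ± 0.30, adjusted p = 0.0309). For the second, the call was lost without WT library 4, WT library 6 or OE library 5 (adjusted p = 0.0790 to 0.122). It was also lost with a pseudocount of 0.1 (adjusted p = 0.0790) and only the drought groups fitted (0.105). Of 4 ACC oxidase genes 1 was higher and 1 lower. ACC oxidase 1 (Potri.002G224100) stood at 52.1, 186 and 282 FPKM in WT and 1559, 2256 and 1467 FPKM in OE (3.61 ± 0.52, adjusted p = 8.90e-04). ACC oxidase 5 (Potri.005G182700) stood at 15.3, 41.2 and 6.30 FPKM in WT and 1.30, 1.43 and 1.99 FPKM in OE (-2.74 ± 0.46, adjusted p = 0.00195). The most abundant ACC oxidase (Potri.014G159000) did not pass, at 2492, 3009 and 3774 FPKM in WT and 4101, 5713 and 4111 FPKM in OE (0.59 ± 0.34, adjusted p = 0.209). Of 35 genes for ethylene synthesis and signalling, those above included, 6 were higher (17.1% against 10.5% of all genes) and 4 lower (11.4% against 22.5%). With median-of-ratios scaling 9 were higher (against 17.3% of all genes) and 1 lower. Without WT library 4, 2 were higher. Without WT library 5, OE library 4, OE library 5 or OE library 6, 1 to 2 were lower.

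The ERF and DREB family, transcription factors of ethylene, wound and dehydration responses, had the highest share of higher genes of the lists with at least 30 genes. Of 103 genes, 40 were higher (38.8% against 10.5% of all genes) and 12 lower, with a median of 0.46 (49 higher and 8 lower with median-of-ratios scaling). Leaving out 1 library gave 32 (without OE library 5) to 45 (without WT library 6) higher genes. ERF110 (Potri.005G195000) stood at 3.09, 9.40 and 7.17 FPKM in WT and 123, 144 and 113 FPKM in OE (4.17 ± 0.40, adjusted p = 1.00e-04). ERF106 (Potri.001G079600) was the member with the largest fall, at 21, 22.1 and 33.3 FPKM in WT and 7.89, 0.620 and 9.29 FPKM in OE (-2.29 ± 0.67, adjusted p = 0.0245). Here the call was lost without WT library 4, WT library 6 or OE library 5 (adjusted p = 0.0540 to 0.0814). It was also lost with only the drought groups fitted (adjusted p = 0.0534).

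Jasmonate genes showed a similar share. Of 53 genes, 19 were higher (35.8%) and 5 lower (median 0.50; 21 higher and 3 lower with median-of-ratios scaling), and leaving out 1 library gave 15 (without WT library 4) to 25 (without WT library 6) higher genes. The summed level was 986, 1017 and 1403 FPKM in WT and 3065, 3235 and 3069 FPKM in OE, against 887, 1070.1 and 1418 FPKM in watered WT. TIFY 10b (Potri.003G068900), a JAZ-type repressor that jasmonate signalling both removes and re-induces, stood at 20.8, 44.4 and 127 FPKM in WT and 400.5, 517 and 382 FPKM in OE (3.1 ± 0.76, adjusted p = 0.0117). WT library 6 was nearest to OE, and the call was lost without WT library 4 (adjusted p = 0.0522). Cytochrome P450 94C1 (Potri.009G145400), which in Arabidopsis oxidises the active hormone jasmonoyl-isoleucine, stood at 1.78, 1.91 and 11 FPKM in WT and 23.9, 31.3 and 20.8 FPKM in OE (2.50 ± 0.48, adjusted p = 0.00393). Polyphenol oxidase (Potri.001G388900), a wound-induced defence enzyme in poplar, stood at 151, 125 and 812 FPKM in WT and 1777, 1926 and 1758 FPKM in OE (2.86 ± 0.62, adjusted p = 0.00697). Lipoxygenase 6 (Potri.008G178000), an enzyme of fatty acid oxidation, fell by 1.14. Kunitz inhibitors and wound proteins as a list had 5 higher and 3 lower of 34 (8 higher and 1 lower with median-of-ratios scaling; 2 to 8 higher without WT library 4, WT library 5, WT library 6, OE library 4 or OE library 5 and 1 to 8 lower without WT library 4 or WT library 6).

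**Figure D4:**
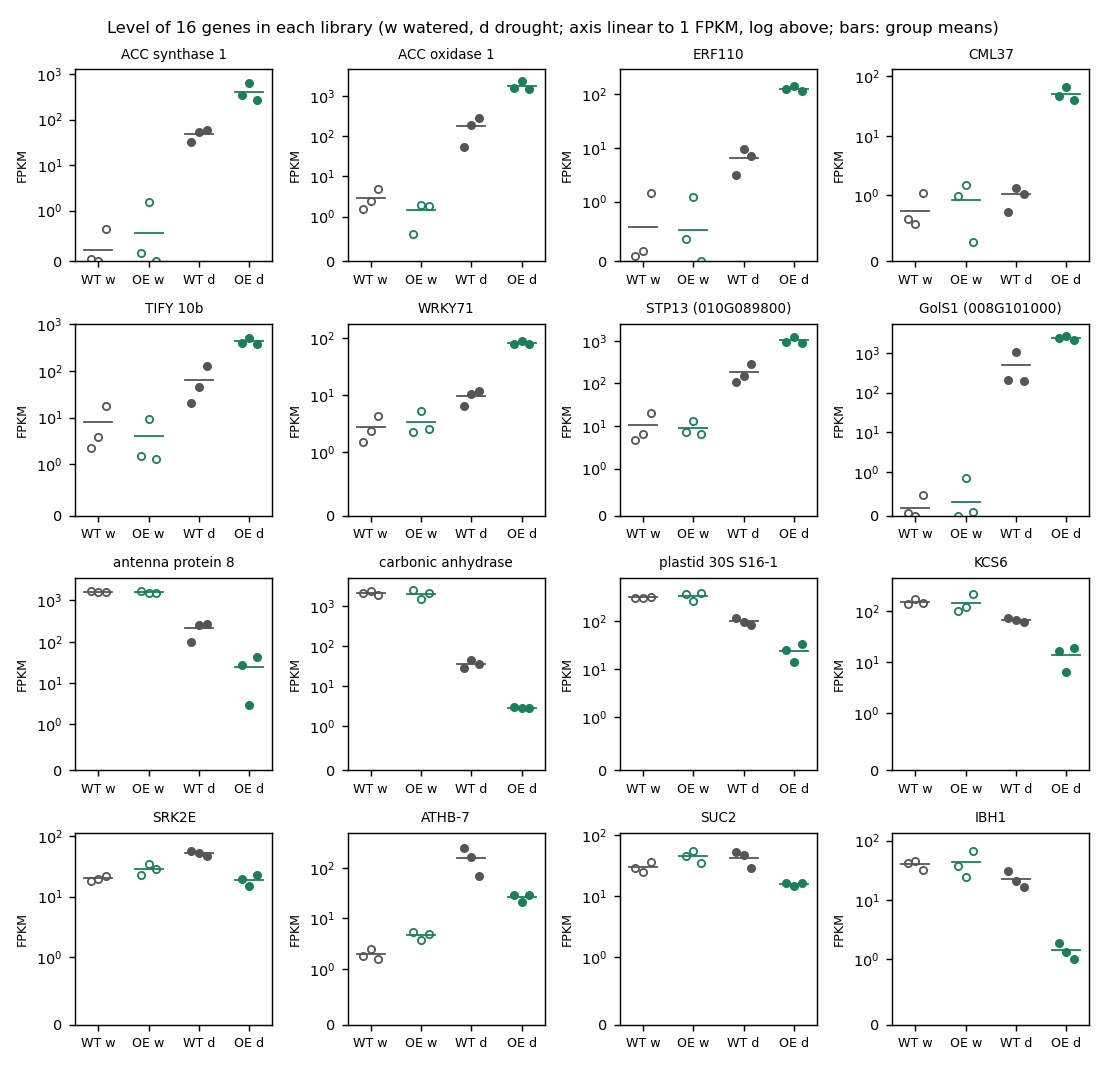
FPKM of 16 genes in all 12 libraries (axis linear to 1 FPKM and log above; open points watered, filled points drought, grey WT, green OE; bars are group means of 3 libraries). In the upper 8 panels the OE drought libraries lie above all WT drought libraries and in the lower 8 below them.

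Several of the largest increases were those of genes for calcium sensors and a calcium pump. Of 189 listed genes for calmodulins, calcium-dependent kinases, pumps and channels, 40 were higher (21.2%) and 19 lower (median 0.15; 63 higher and 10 lower with median-of-ratios scaling). CML37 (Potri.002G001400) and CML38 (Potri.005G259900), calmodulin-like sensors, are not counted in that list. CML37 stood at 0.747, 1.33 and 1.05 FPKM in WT and 47.1, 65.3 and 39.2 FPKM in OE (4.64 ± 0.26, adjusted p = 2.73e-06). CML38 stood at 4.70, 5.47 and 4.22 FPKM in WT and 116, 236 and 74.6 FPKM in OE (4.47 ± 0.41, adjusted p = 7.75e-05). A plasma membrane calcium pump (Potri.008G159100), which is in the list, stood at 0.725, 1.65 and 1.63 FPKM in WT and 48.5, 74 and 39.2 FPKM in OE (4.53 ± 0.25, adjusted p = 2.73e-06). In each the WT drought libraries were at or under 5.47 FPKM, and OE library 5 was the highest. The list had 8 to 12 lower without WT library 4, OE library 4 or OE library 5.

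Among other transcription factor families, NAC genes leaned toward higher levels in OE, and WRKY and MYB factors had called genes in both directions. Of 58 NAC genes, 14 were higher (24.1% against 10.5% of all genes) and 4 lower (6.9% against 22.5%), with a median of 0.47. The counts were 22 higher and 4 lower with median-of-ratios scaling, 9 higher without OE library 4 and 2 lower without OE library 5. NAC domain-containing protein 2 (Potri.005G069500) rose by 2.05 and NAC domain-containing protein 69 (Potri.002G181800) fell by 1.42. WRKY factors, regulators of defence and senescence, had 18 higher and 17 lower of 90 (26 higher and 9 lower with median-of-ratios scaling; 9 to 11 lower without WT library 4, OE library 4 or OE library 5). WRKY71 (Potri.001G352400) stood at 6.44, 10.6 and 11.9 FPKM in WT and 77.5, 88.6 and 78.4 FPKM in OE (2.99 ± 0.31, adjusted p = 1.47e-04). WRKY70 (Potri.006G109100) stood at 64.1, 55.1 and 108 FPKM in WT and 10.3, 7.38 and 12.1 FPKM in OE (-2.77 ± 0.44, adjusted p = 0.00150). Neither overlapped between genotypes, and both were named as the ends of their list. MYB factors had 23 higher and 15 lower of 101 (31 higher and 9 lower with median-of-ratios scaling; 26 lower without WT library 6). MYB39 (Potri.013G148600), a regulator of suberin in Arabidopsis roots, was under 1 FPKM in WT, at 0.0696, 0.695 and 0.742 FPKM in WT and 30.7, 29.5 and 29.5 FPKM in OE (4.40 ± 0.21, adjusted p = 1.63e-06). It entered through the OE libraries alone and so had to differ.

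The bHLH family had 37 lower and 10 higher of 104 (14 higher and 24 lower with median-of-ratios scaling), and 6 higher without WT library 4 or OE library 4 and 19 lower without WT library 4. IBH1 (Potri.006G177000), a related protein not counted in that list, which in Arabidopsis restrains growth-promoting bHLH factors, stood at 30.9, 20.8 and 16.6 FPKM in WT and 1.88, 1.31 and 1.00 FPKM in OE (-3.28 ± 0.33, adjusted p = 1.21e-04). Factor bHLH51 (Potri.010G186700) was lower, at 6.22, 7.11 and 20.4 FPKM in WT and 1.41, 0.351 and 1.23 FPKM in OE (-2.48 ± 0.35, adjusted p = 8.71e-04), and bHLH25 (Potri.009G081400) higher, at 22.6, 17 and 15.8 FPKM in WT and 129, 207 and 98.7 FPKM in OE (2.85 ± 0.31, adjusted p = 1.87e-04). HD-Zip homeodomain factors had 14 lower and 2 higher of 41 (3 higher and 10 lower with median-of-ratios scaling). Without WT library 4 or OE library 5, 8 to 9 were lower, and HAT14 (Potri.016G059000) was one of the higher, at 1.63. The summed HD-Zip level did not follow this count, at 2348, 2155 and 1675 FPKM in WT and 2381, 1890 and 2587 FPKM in OE. In watered leaves the sums were 980, 825 and 953 FPKM in WT and 2260, 3276 and 2229 FPKM in OE. There 2 HD-Zip genes were called higher in OE and 0 lower. TCP and growth-regulating factors had 12 lower and 2 higher of 38 (4 higher and 8 lower with median-of-ratios scaling), with TCP22 (Potri.019G081800) at -1.67 and TCP13 (Potri.T146100) at 1.30 in log2 difference.

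Auxin genes had 38 lower and 12 higher of 115 (median -0.53; 19 higher and 25 lower with median-of-ratios scaling; 7 higher without WT library 4 or OE library 5). The repressor IAA12 (Potri.018G127800) stood at 13.2, 19 and 20.9 FPKM in WT and 2.61, 1.74 and 3.73 FPKM in OE (-2.35 ± 0.31, adjusted p = 4.69e-04). The small auxin-induced protein SAUR36 (Potri.003G113100) stood at 2.29, 2.74 and 5.41 FPKM in WT and 32.2, 54.9 and 24.8 FPKM in OE (3.08 ± 0.35, adjusted p = 2.14e-04). Gibberellin and cytokinin genes had 19 lower and 5 higher of 66 (7 higher and 14 lower with median-of-ratios scaling). Cytokinin hydroxylase (Potri.012G142000), which makes the trans-zeatin side chain, rose by 2.49 from at most 1.05 FPKM in WT, while a LOG-type enzyme that frees active cytokinin (Potri.002G024000) fell by 1.67. Cell division genes and histones had 34 lower and 1 higher of 106, with 3 higher and 8 lower with median-of-ratios scaling, and 9 (without WT library 4) to 43 (without WT library 6) lower when 1 library was left out. A histone H4 gene (Potri.007G013300) stood at 52.3, 62.2 and 20.9 FPKM in WT and 16.7, 5.53 and 22.1 FPKM in OE (-1.60 ± 0.45, adjusted p = 0.0208). The call was lost without WT library 4, WT library 5 or OE library 5 (adjusted p = 0.0726 to 0.0779). It was also lost with only the drought groups fitted (adjusted p = 0.0825) and the replicate number as a block (0.110). Cyclin-D3-1 (Potri.001G301800), a promoter of cell cycle entry, was the higher gene, at 0.265, 0.441 and 0.171 FPKM in WT and 1.91, 1.38 and 1.51 FPKM in OE (1.01 ± 0.17, adjusted p = 0.00227). It reached 1 FPKM in the OE libraries alone, so it entered through the genotype where it is high and had to differ, as did MYB39 and the L19-1 gene above. Of the list of flowering and phase-change factors, 5 were higher and 7 lower of 34 (7 higher and 5 lower with median-of-ratios scaling; 12 lower without WT library 6). The list was gathered by name, so a member need not act in flowering or phase change. SPL5 (Potri.011G116800), of the family that miR156 targets, fell by 1.62. The MADS factor AGL61 (Potri.002G062000) rose by 1.54 from a low level, at 0.171, 0.855 and 1.99 FPKM in WT and 4.28, 4.82 and 4.19 FPKM in OE.

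ABA synthesis and breakdown had 5 higher and 4 lower of 22 genes (6 higher and 2 lower with median-of-ratios scaling; 1 to 2 lower without WT library 4, WT library 5, OE library 4 or OE library 5). Abscisate glucosyltransferase (Potri.001G303801), which stores ABA as its glucose ester, stood at 4.79, 4.93 and 6.89 FPKM in WT and 54.3, 57.5 and 54.1 FPKM in OE (3.12 ± 0.18, adjusted p = 2.73e-06). An ABA hydroxylase (Potri.004G140900), which inactivates the hormone, stood at 10.4, 7.90 and 6.04 FPKM in WT and 2.15, 2.34 and 2.68 FPKM in OE (-1.40 ± 0.44, adjusted p = 0.0344). Here the call was lost without WT library 4, WT library 5, OE library 4, OE library 5 or OE library 6 (adjusted p = 0.0573 to 0.117). It was also lost with median-of-ratios scaling (adjusted p = 0.0696) and with no filter (0.0547). The 2 genes named for NCED, the rate-limiting step of ABA synthesis, did not pass: Potri.011G112400 stood at 224, 252 and 108 FPKM in WT and 148, 215 and 129 FPKM in OE (-0.19 ± 0.31, adjusted p = 0.677). Potri.001G393800 stood at 19.7, 32.2 and 11.6 FPKM in WT and 36, 57.6 and 26.7 FPKM in OE (0.93 ± 0.41, adjusted p = 0.102). ABA signalling had 1 higher and 6 lower of 43, with 4 higher and 4 lower with median-of-ratios scaling, and 3 (without WT library 4) to 12 (without WT library 6) lower when 1 library was left out. The kinase SRK2E (Potri.009G106900), which in Arabidopsis closes stomata in response to ABA, stood at 56.4, 52.7 and 46.5 FPKM in WT and 19.4, 14.8 and 22.8 FPKM in OE (-1.42 ± 0.19, adjusted p = 4.86e-04). Phosphatase 2C 37 (Potri.010G199600), an ABA-induced brake on the pathway, stood at 45.6, 39.1 and 33.2 FPKM in WT and 92.1, 114 and 81.4 FPKM in OE (1.26 ± 0.19, adjusted p = 0.00122). ATHB-7 (Potri.001G083700), a drought- and ABA-induced HD-Zip factor, stood at 249, 162 and 69 FPKM in WT and 29.3, 21.2 and 29.2 FPKM in OE (-2.38 ± 0.36, adjusted p = 0.00121). Of these 3 genes the first and last were lower in every OE library and the phosphatase was higher in every one.

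Late embryogenesis abundant proteins and dehydrins had 6 lower and 1 higher of 16 (1 higher and 4 lower with median-of-ratios scaling), and the higher gene was not called when any 1 of the 6 libraries was left out. A low-temperature-induced protein of the RD29 type (Potri.015G143932) stood at 73.7, 89.7 and 41.4 FPKM in WT and 13.5, 13.6 and 15.6 FPKM in OE (-2.12 ± 0.23, adjusted p = 1.91e-04). Galactinol synthase begins the raffinose family of sugars, and of its 10 genes 3 were higher, 2 lower and 5 not called. The most abundant copy in OE (Potri.008G101000) stood at 213, 1041 and 202 FPKM in WT and 2363, 2735 and 2143 FPKM in OE (2.75 ± 0.51, adjusted p = 0.00326), so WT library 5 was well above its partners but below every OE library. Copy Potri.008G189400 was lower, at 158, 209 and 416 FPKM in WT and 82.2, 41.1 and 108 FPKM in OE (-1.73 ± 0.42, adjusted p = 0.0114), as was Potri.014G116800, at 39.7, 112 and 183 FPKM in WT and 15, 14.3 and 17.1 FPKM in OE (-2.53 ± 0.84, adjusted p = 0.0415). For the latter, the call was lost without WT library 5, WT library 6, OE library 4, OE library 5 or OE library 6 (adjusted p = 0.0715 to 0.110). It was also lost with median-of-ratios scaling (adjusted p = 0.0759), scaling outside the 100 most abundant genes (0.0506) and no filter (0.0639). The whole list of raffinose, trehalose and proline genes had 7 higher and 6 lower of 36 (7 higher and 3 lower with median-of-ratios scaling; 4 higher without WT library 4 or OE library 5). The other higher galactinol synthase copies were Potri.002G191600 (1.43) and Potri.013G005800 (1.60). Raffinose synthase, the next enzyme, had 2 higher and no lower of 8 genes, namely Potri.016G054700 (1.10 ± 0.25, adjusted p = 0.00903) and Potri.006G065700 (0.98 ± 0.30, adjusted p = 0.0309). For the second, the call was lost without WT library 6, OE library 4 or OE library 5 (adjusted p = 0.0539 to 0.105). It was also lost with a pseudocount of 0.1 (adjusted p = 0.0607), only the drought groups fitted (0.0890) and the replicate number as a block (0.0585).

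Sugar transport had 7 higher and 12 lower of 41, with 10 higher and 8 lower with median-of-ratios scaling and 7 lower without WT library 4. The members with the largest rise and the largest fall, named for that reason, are both genes for the hexose importer STP13, of which Potri.010G089800 stood at 108, 152 and 285 FPKM in WT and 960.2, 1262 and 877 FPKM in OE (2.60 ± 0.46, adjusted p = 0.00265). Potri.008G151100 stood at 12.2, 32.3 and 108 FPKM in WT and 6.37, 4.17 and 7.39 FPKM in OE (-2.41 ± 0.59, adjusted p = 0.0122). Polyol transporter 6 (Potri.007G027900), a carrier of sugar alcohols not counted in that list, stood at 9.38, 15 and 5.72 FPKM in WT and 229, 252 and 223 FPKM in OE (4.50 ± 0.32, adjusted p = 1.53e-05). SUC2 (Potri.019G085800), which loads sucrose into the phloem, stood at 51.6, 46.7 and 28.6 FPKM in WT and 16.4, 14.4 and 16 FPKM in OE (-1.34 ± 0.23, adjusted p = 0.00255). Beta-amylase 3 (Potri.001G148900), which breaks down leaf starch, stood at 97.3, 54.3 and 63.3 FPKM in WT and 316, 238 and 329 FPKM in OE (2.05 ± 0.24, adjusted p = 2.29e-04). All the genes of this paragraph had non-overlapping genotypes, 3 with OE above and 2 with OE below.

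Of 102 genes listed for wax and cutin, GDSL lipases included, 36 were lower and 9 higher (median -0.49). With median-of-ratios scaling 16 were higher and 29 lower. The list was gathered by name, so a member need not act in wax or cutin synthesis. KCS6 (Potri.010G125300), the elongase of leaf surface wax, stood at 73.7, 68 and 62.2 FPKM in WT and 16.8, 6.33 and 18.9 FPKM in OE (-2.32 ± 0.36, adjusted p = 0.00127). The GDSL lipases named here, whose family includes cutin enzymes, include the largest rise and the largest fall of the list. Their opposite directions follow from that choice. APG (Potri.001G191400) stood at 162, 154 and 62.1 FPKM in WT and 6.45, 6.86 and 7.51 FPKM in OE (-3.88 ± 0.44, adjusted p = 2.11e-04). Potri.014G160100 stood at 277, 275 and 108 FPKM in WT and 19.8, 26.9 and 17.1 FPKM in OE (-3.21 ± 0.44, adjusted p = 6.60e-04), whereas Potri.003G213700 stood at 9.55, 28.6 and 44.1 FPKM in WT and 217, 385 and 169.6 FPKM in OE (3.33 ± 0.59, adjusted p = 0.00270). Lipid-transfer and proline-rich proteins had 7 higher and 11 lower of 37 (8 higher and 10 lower with median-of-ratios scaling). A membrane-anchored protein (Potri.010G085400) rose by 3.48 and lipid-transfer protein 3 (Potri.016G135800) fell by 2.96. YLS3 (Potri.003G217000), a related protein first named from yellowing leaves, had the largest fall of the described genes, at 56.9, 61.7 and 34.9 FPKM in WT and 2.17, 2.62 and 1.88 FPKM in OE (-3.98 ± 0.24, adjusted p = 3.51e-06).

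Cell wall enzymes held more called genes than the background in both directions for expansins and xyloglucan endotransglucosylases (9 higher and 14 lower of 41; 10 higher and 12 lower with median-of-ratios scaling), and a share near it for pectin enzymes (10 and 18 of 82; 13 higher and 13 lower with median-of-ratios scaling; 5 higher without OE library 5). Expansin-B2 (Potri.014G066300), a wall-loosening protein, stood at 222, 159.7 and 54.1 FPKM in WT and 10.9, 19.1 and 10.2 FPKM in OE (-3.17 ± 0.41, adjusted p = 4.43e-04). A xyloglucan endotransglucosylase (Potri.018G094800) stood at 0.994, 8.39 and 1.18 FPKM in WT and 28, 61.5 and 20.7 FPKM in OE (3.30 ± 0.54, adjusted p = 0.00182). Pectate lyase 18 (Potri.012G091500) stood at 104, 60.9 and 29.5 FPKM in WT and 5.29, 4.91 and 5.29 FPKM in OE (-3.24 ± 0.45, adjusted p = 6.87e-04). Secondary wall genes had 12 higher and 12 lower of 93 (17 higher and 6 lower with median-of-ratios scaling; 5 to 7 higher without WT library 4 or OE library 5 and 7 lower without OE library 4 or OE library 5). Phenylpropanoid and flavonoid genes had 18 and 17 of 98 (27 higher and 10 lower with median-of-ratios scaling; 11 higher without WT library 4 and 9 to 11 lower without WT library 4, WT library 5, OE library 4 or OE library 5), with leucoanthocyanidin dioxygenase (Potri.016G117100), of the anthocyanin branch, at 2.84 and a caffeic acid methyltransferase of the lignin branch (Potri.015G003100) at -2.33.

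The genes named here are the members with the largest rise and the largest fall of their lists, so their opposite directions follow from that choice. Aquaporins had 7 higher and 7 lower of 34 (8 higher and 6 lower with median-of-ratios scaling). Of a pair of genes for the plasma membrane water channel PIP2-7, Potri.005G109200 stood at 2.07, 2.06 and 4.31 FPKM in WT and 18.5, 23.6 and 18.7 FPKM in OE (2.52 ± 0.28, adjusted p = 1.94e-04). Potri.004G176300 stood at 17.3, 6.30 and 4.35 FPKM in WT and 1.48, 1.06 and 0.686 FPKM in OE (-2.13 ± 0.43, adjusted p = 0.00520). Potassium transporter 5 (Potri.014G132500), a high-affinity importer, was variable in WT, at 2.81, 11.8 and 46.9 FPKM in WT and 122, 166 and 109 FPKM in OE (3.31 ± 0.77, adjusted p = 0.00975). A plasma membrane proton pump (Potri.015G066000) was tight, at 19.3, 13.9 and 15.6 FPKM in WT and 4.61, 3.43 and 4.64 FPKM in OE (-1.72 ± 0.19, adjusted p = 1.93e-04). The amino acid transporter ANTL1 (Potri.017G083500) rose by 4.25, and a transporter of the nitrate and peptide family (Potri.001G013400) fell by 2.12. The ion transport list had 26 higher and 24 lower of 156, with 42 higher and 6 lower with median-of-ratios scaling and 6 to 13 lower without WT library 4, WT library 5 or OE library 5.

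The largest increase among described genes was that of EXO70A1 (Potri.001G234600), a subunit of the exocyst that tethers secretory vesicles to the plasma membrane. It stood at 1.27, 2.42 and 6.60 FPKM in WT and 224, 307 and 201 FPKM in OE (5.95 ± 0.45, adjusted p = 1.91e-05), a ratio of means of 71.1. The files place it on chromosome 1 at 24662395 to 24664623, in a build not given in the sources used here. A thaumatin-like protein (Potri.005G112700), of the pathogenesis-related class, stood at 0.612, 1.27 and 0.775 FPKM in WT and 42.8, 45 and 43.5 FPKM in OE (4.58 ± 0.20, adjusted p = 1.29e-06). The zinc finger factors ZAT11 (Potri.001G235800) and ZAT12 (Potri.009G027700), early stress regulators, rose by 4.37 and 4.31. NFD4 (Potri.006G122400), named for nuclear fusion in Arabidopsis reproduction, rose by 4.33. Other large increases were those of terpene synthase 6 (Potri.007G074400, 4.21), the ubiquitin ligase PUB21 (Potri.008G137700, 3.98), a mitochondrial carrier of the uncoupling protein family (Potri.005G157300, 3.38), a lectin receptor kinase (Potri.016G031300, 3.32), the F-box protein PP2-B15 (Potri.013G012600, 3.17) and the chloroplast chaperone ClpD (Potri.015G110000, 3.09), which dehydration induces in Arabidopsis. A class III small heat shock protein (Potri.003G071100) fell by 2.15.

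Several large lists held called genes in both directions. Receptor-like kinases had 97 higher and 95 lower of 499, and ABC transporters 20 and 14 of 96. With median-of-ratios scaling these splits moved to 126 higher and 50 lower and to 30 and 12. Heat shock proteins and chaperones had 20 and 38 of 220, and ubiquitin ligases 78 and 108 of 617. Under the same scaling the last 2 lists reversed their majority, to 44 higher and 16 lower and to 146 and 60. Without single libraries the receptor kinases had 43 to 44 lower without WT library 4 or OE library 5, and ABC transporters 11 to 13 higher without WT library 4, OE library 4 or OE library 5. Chaperones had 13 higher without WT library 4 or OE library 4 and 21 to 22 lower without WT library 4 or OE library 5, and ubiquitin ligases 55 to 60 lower without WT library 4 or OE library 5. Autophagy genes, which recycle cell contents, had 9 higher and 3 lower of 39 (14 higher and 1 lower with median-of-ratios scaling; 4 to 5 higher without WT library 4 or WT library 5 and 1 to 9 lower without WT library 4, WT library 5 or WT library 6), with ATG18h (Potri.013G028200) at 1.47 and ATG8g (Potri.002G144600) at -1.35.

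Genes described as APETALA2, the family that miR172 is known to target, were checked because they bear on the labels. The microRNA itself and its binding sites were not analysed here. Of 6 AP2 genes 3 were higher in OE drought leaves and none lower (4 and 0 with median-of-ratios scaling). Potri.010G216200 stood at 4.32, 3.43 and 3.09 FPKM in WT and 10.3, 6.33 and 13.3 FPKM in OE (1.21 ± 0.29, adjusted p = 0.0109). Potri.005G140700 stood at 3.45, 4.31 and 5.20 FPKM in WT and 9.24, 8.19 and 9.67 FPKM in OE (0.93 ± 0.17, adjusted p = 0.00339). Potri.016G084500 also passed, at 4.31, 11 and 8.35 FPKM in WT and 14.1, 12.2 and 14 FPKM in OE (0.78 ± 0.24, adjusted p = 0.0312), but the call was lost without WT library 4, OE library 4, OE library 5 or OE library 6 (adjusted p = 0.0580 to 0.0862). It was also lost with only the drought groups fitted (adjusted p = 0.105) and the replicate number as a block (0.111). The other 3, Potri.008G045300, Potri.006G132400 and Potri.007G046200, did not pass, at -0.35, 0.29 and 0.16. No AP2 gene passed the test as lower in OE in either watering, and protein was not measured.

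Stomatal genes were few above 1 FPKM. Of 39 genes of the stomatal lineage in the table, 7 entered, of which 1 was higher and 3 lower (1 higher and 3 lower with median-of-ratios scaling). ICE1 (Potri.012G106000), partner of the bHLH factors that drive the lineage, stood at 11.6, 12.4 and 13.4 FPKM in WT and 22.7, 19.7 and 21.6 FPKM in OE (0.73 ± 0.14, adjusted p = 0.00351). ERL2 (Potri.011G021332), a receptor kinase that spaces stomata, stood at 4.12, 2.71 and 8.56 FPKM in WT and 1.45, 0.706 and 2.26 FPKM in OE (-1.25 ± 0.31, adjusted p = 0.0134). The call was lost without OE library 5 (adjusted p = 0.0571) and with only the drought groups fitted (0.0660). The guard cell list had 2 higher and 2 lower of 6 (2 higher and 1 lower with median-of-ratios scaling; 1 higher without WT library 4, WT library 5, OE library 4 or OE library 5 and 1 to 4 lower without WT library 4, WT library 5, WT library 6, OE library 4, OE library 5 or OE library 6). The guard cell potassium channel KAT1 (Potri.004G132200), which admits potassium during opening, stood at 0.459, 1.19 and 1.51 FPKM in WT and 7.11, 4.83 and 7.66 FPKM in OE (1.89 ± 0.23, adjusted p = 3.30e-04). The trihelix factor GTL1, which in Arabidopsis represses the stomatal protease gene SDD1, had 2 genes, and neither passed (Potri.001G454500, -0.58 ± 0.27, adjusted p = 0.123; Potri.011G147400, -0.43 ± 0.34, adjusted p = 0.353). The SDD1 gene was below the level needed to enter.

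Markers of mesophyll and epidermis were lower in OE drought leaves, and those of other cell types were less uniform. The 26 mesophyll markers (Rubisco small chain and antenna proteins, which overlap the photosystem list) held 23 lower and no higher genes, and their sum was 2270.0 to 4038 FPKM in WT and 198 to 1135 FPKM in OE drought leaves. In watered leaves it was 38435 to 47002 FPKM in WT and 26302 to 38103 FPKM in OE, so the defining markers of leaf mesophyll were abundant. All 6 epidermis markers that entered were lower (sums 377 to 609 and 188 to 224 FPKM), KCS6 among them. Xylem markers held 4 higher of 13 (sums 64.3 to 201 and 211 to 392 FPKM), phloem markers 1 lower of 13 (305 to 1148 and 385 to 609.6 FPKM), and markers of dividing cells 6 lower of 19 (232 to 455 and 239 to 260.4 FPKM). Guard cell markers held 1 higher of 2 (KAT1), and none of 5 shoot meristem markers entered. The part of cell composition in the gene differences was not tested.

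Each genotype's own change from watered to drought leaves, which shares the drought libraries with the comparison above, is given side by side. Of the 2324 genes higher in OE, 1383 rose and 149 fell in WT drought leaves against WT watered leaves, and 2144 rose and 28 fell in OE. Of the 4970 lower genes, 1403 rose and 1284 fell in WT, and 199 rose and 3317 fell in OE.

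**Figure D5:**
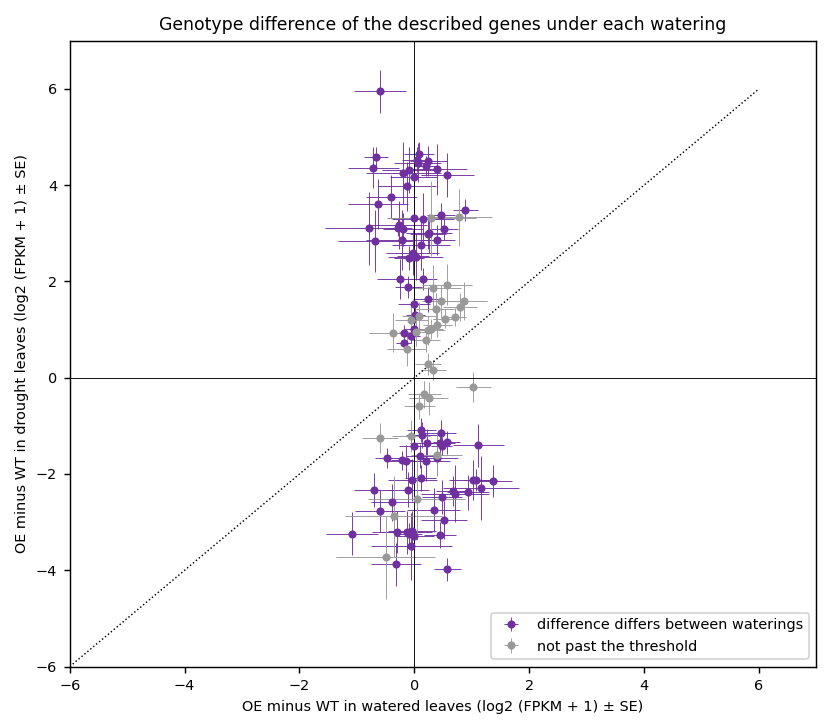
Difference of OE minus WT in watered leaves (horizontal) and in drought leaves (vertical), both log2(FPKM + 1) ± SE, for the genes described by name. Purple points passed the test that the difference differs between waterings; the points spread between -3.98 and 5.95 vertically and between -1.08 and 1.36 horizontally, and the dotted line marks equal differences.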

How the data were processed

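RNA from leaves 7 and 8 was sequenced as 12 libraries, 3 in each of 4 groups, and the authors deposited one table of FPKM per gene. Per the submitters' processing notes, Bowtie2 2.2.3 and HISAT2 2.1.0 were used; the part each played, the build and the annotation release were not stated. Per the labels' protocols the kit was a paired-end kit that is not described as strand-specific, so a gene and an overlapping or antisense gene, or near-identical copies, may share reads.

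FPKM steps gave whole fragments (tolerance 0.02) for 100% of 35747 genes, with totals of 9682111 to 12131416. The 25373 genes that reached 1 FPKM in 3 or more of the 12 libraries entered a limma fit (version 3.58.1, R 4.3.3) on log2(FPKM + 1), as 4 group means with a trended prior and 8 residual degrees of freedom. P-values were adjusted by the Benjamini-Hochberg method over all 25373 genes. Alternatives were a pseudocount of 0.1, no or a stricter filter, the drought groups alone, 2 other scalings, voom on recovered fragments, a log2 difference of at least 1, the replicate number as a block, and each drought library left out. Tables were made with Python 3.11.15 and pandas 2.3.3.

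Gene lists are patterns in the gene descriptions. The rule for named genes takes the 10 largest differences in each direction with no overlap between genotypes, the largest higher and lower member of each list, and all AP2, GTL1, SDD1, ACC synthase, ACC oxidase, galactinol synthase, raffinose synthase and NCED genes. It gives 160 genes, of which 117 are described. The genes, lists and tests were chosen with earlier results of these data known, and no list was tested as a set.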

Additional observations from a re-analysis of the deposited data

Results flagged for a closer look

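For the genes below the OE minus WT difference itself differed between drought and watered leaves, tested as the interaction in the limma fit (adjusted p under 0.05 over 25373 genes). The test passed for 86 of the 117 genes described by name, against 15.1% of all tested genes, and most of the 117 were named for a large difference in drought, so this share is no independent evidence. Each value is the log2 difference in drought minus that in watered leaves, with 3 libraries in each group; a positive value means that OE stood higher relative to WT in drought.

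Among genes of photosynthesis and pigments, the value was -3.46 for antenna protein 8, -3.14 for carbonic anhydrase and -3.09 for the small photosystem II subunit. It was 4.15 for glutamyl-tRNA reductase 1, -1.59 for protochlorophyllide reductase and -2.21 for thioredoxin M. For ribosomes, splicing and translation, the value was -2.19 for plastid protein S16-1 and -1.21 for the nucleolar protein. It was 0.93 for the cap-binding complex subunit, -1.57 for initiation factor 1A and -1.32 for small nuclear ribonucleoprotein G. Among genes of ethylene, the value was 4.25 for ACC oxidase 1 and -3.08 for ACC oxidase 5. It was 2.74 for ACC synthase 1, 4.19 for ERF110 and -3.45 for ERF106. Within jasmonate and defence, the value was 3.89 for TIFY 10b, -1.60 for lipoxygenase 6 and 3.09 for polyphenol oxidase. It was 2.48 for cytochrome P450 94C1, 5.25 for the thaumatin-like protein and -3.72 for peroxidase 42. Among genes of calcium and secretion, the value was 4.55 for CML37 and 4.41 for CML38. It was 4.49 for the calcium pump and 6.55 for EXO70A1. Among genes of NAC, WRKY and MYB factors, the value was 2.29 for NAC domain-containing protein 2 and -1.42 for NAC domain-containing protein 69. It was 2.75 for WRKY71, -2.18 for WRKY70 and 4.19 for MYB39. For zinc finger and bHLH factors, the value was 5.08 for ZAT11, 4.41 for ZAT12 and -3.28 for IBH1. It was 2.45 for bHLH25, -2.96 for bHLH51 and 0.92 for ICE1. Among genes of factors of growth and phase change, the value was 1.39 for HAT14, 1.28 for TCP13 and -2.07 for TCP22. It was -1.72 for SPL5, 1.11 for the AP2 gene Potri.005G140700 and 1.02 for cyclin-D3-1. For the MADS factor AGL61 the value was 1.54. Within growth hormones, the value was 3.28 for SAUR36 and -3.03 for IAA12. It was 2.57 for cytokinin hydroxylase and -1.19 for the LOG-type enzyme. Among genes of ABA and guard cells, the value was 3.40 for abscisate glucosyltransferase, -2.52 for the ABA hydroxylase and -1.89 for SRK2E. It was 2.00 for KAT1, -3.31 for ATHB-7 and -3.20 for the low-temperature-induced protein. Among genes of protective sugars and their transport, the value was 2.64 for galactinol synthase Potri.008G101000, -1.93 for galactinol synthase Potri.008G189400 and 2.63 for STP13 Potri.010G089800. It was -3.11 for STP13 Potri.008G151100, 4.26 for polyol transporter 6, 1.89 for beta-amylase 3 and -1.90 for SUC2. For the cuticle and lipid transfer, the value was -3.56 for the GDSL lipase APG, -2.91 for the GDSL lipase Potri.014G160100 and -2.21 for KCS6. It was 2.60 for the anchored lipid-transfer protein, -3.47 for lipid-transfer protein 3 and -4.55 for YLS3. Among genes of the cell wall and phenylpropanoids, the value was -2.16 for pectate lyase 18, 3.15 for the xyloglucan endotransglucosylase and -3.13 for expansin-B2. It was 3.52 for leucoanthocyanidin dioxygenase, -1.63 for the caffeic acid methyltransferase and 3.64 for terpene synthase 6. Within membrane transport, the value was 2.54 for PIP2-7 Potri.005G109200, -2.09 for PIP2-7 Potri.004G176300 and -1.51 for the proton pump. It was 4.43 for ANTL1, -3.14 for the nitrate and peptide family transporter and 2.91 for the uncoupling-type carrier. Among genes of protein turnover, folding and kinases, the value was 2.57 for ClpD, -3.51 for the class III heat shock protein and -1.79 for ATG8g. It was 3.44 for PP2-B15, 4.10 for PUB21, 3.32 for the lectin receptor kinase and 3.94 for NFD4.

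With 3 libraries in a group no library was tested as an outlier, and WT library 6 and OE library 5 are described above as standing apart.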

How the results depend on the processing

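The number of genes higher in OE drought leaves, 2324, stayed within 1.5 times under the other pseudocount, the filters, the fit of the drought groups alone, scaling outside the 100 most abundant genes and voom on recovered fragments. It was 3833 with median-of-ratios scaling, 1348 with a log2 difference of at least 1 and 1440 with the replicate number as a block. Leaving out 1 replicate gave 1630 to 2904. The number lower, 4970, was 2226 with only the drought groups fitted, 2491 with median-of-ratios scaling, 2021 with a log2 difference of at least 1 and 2077 with the block, and 2491 to 5923 without 1 replicate. The block fit uses the drought libraries alone, where the fit without a block gave 1643 higher and 2226 lower. The deviations of same-numbered libraries from their group means correlated at -0.06, 0.22 and 0.14. Libraries of unlike number correlated at -0.19 to 0.18. So few values cannot tell whether the numbers pair the libraries. The interaction count, 3662, was 1890 to 6379 without 1 replicate. The watered count, 18, was 8 with voom and 5 to 55 without 1 replicate. An alternative chosen after seeing the data, without WT drought replicate 6 and OE drought replicate 5, gave 2709 higher, 4892 lower, 6078 interaction and 102 watered genes. The cause of these changes was not tested, except that fits with fewer libraries have fewer degrees of freedom.

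Of the 117 genes described, 109 were called. Of these, 86 were called under every one of the 16 settings that tested them, and 23 lost the call under at least 1. The stricter filter left out genes below 1 FPKM in any drought library, MYB39 and KAT1 among them, so it did not test those. Losses only under settings other than leaving out 1 library are not marked beside the gene above, except for antenna protein 3C. The direction reversed only for 3 genes that were not called: AP2 Potri.008G045300 (-0.58 to 0.06 without 1 replicate, positive without OE replicate 5, and 0.13 without WT replicate 6 and OE replicate 5), GTL1 Potri.011G147400 (-0.70 to 0.04 and 0.24 in the same settings) and NCED Potri.011G112400 (0.12 with median-of-ratios scaling, and -0.77 without WT replicate 6 and OE replicate 5 to 0.042 without WT replicate 5). Depth limits the low genes: below 1 FPKM a gene rests on few fragments, and the log2(FPKM + 1) scale understates its change.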

Other observations

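Lists not counted above had these values in OE against WT drought leaves, beside 10.5% higher and 22.5% lower over all 22106 genes. Starch and sucrose cleavage had 13 higher and 13 lower of 71 genes (15 higher and 3 lower with median-of-ratios scaling; 3 to 7 lower without WT library 4, WT library 5, OE library 4 or OE library 5). Nitrogen transport and assimilation had 16 and 29 of 141 (24 higher and 18 lower with median-of-ratios scaling; 10 higher without WT library 4 or OE library 4 and 16 to 17 lower without WT library 4 or OE library 5). Secretion by the exocyst and SNARE proteins had 17 and 17 of 111 (31 higher and 9 lower with median-of-ratios scaling; 6 to 10 lower without WT library 4, WT library 5 or OE library 5). Mitochondrial import and carriers had 14 and 27 of 119 (17 higher and 11 lower with median-of-ratios scaling; 5 to 7 higher without WT library 4, WT library 5 or OE library 5 and 12 lower without WT library 4 or OE library 5). Pathogenesis-related proteins had 8 and 17 of 70 (10 higher and 9 lower with median-of-ratios scaling; 9 to 11 lower without WT library 4, WT library 5, OE library 4 or OE library 5).

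Clock and light receptor genes had 8 higher and 12 lower of 66 (13 higher and 5 lower with median-of-ratios scaling; 2 to 5 higher without WT library 4, OE library 4 or OE library 5 and 5 to 7 lower without WT library 5 or OE library 5). Terpene and isoprenoid genes had 5 and 4 of 53 (8 higher and 2 lower with median-of-ratios scaling). Cytochrome P450 genes had 15 and 18 of 113 (22 higher and 10 lower with median-of-ratios scaling; 9 higher without WT library 4 and 9 to 10 lower without WT library 4 or OE library 5), and UDP-glycosyltransferases 7 and 14 of 68 (10 higher and 11 lower with median-of-ratios scaling; 4 to 12 higher without WT library 5, WT library 6, OE library 4 or OE library 6 and 9 lower without WT library 4 or OE library 5). Phloem genes had 3 higher and 3 lower of 21 (3 higher and 2 lower with median-of-ratios scaling; 6 lower without WT library 6). Epidermis and trichome genes had 0 higher and 9 lower of 19 (3 higher and 7 lower with median-of-ratios scaling; 1 higher without WT library 6). Meristem genes had 0 higher and 3 lower of 6 (0 higher and 2 lower with median-of-ratios scaling; 1 to 5 lower without WT library 4 or WT library 6). Among the called genes, 488 of the higher and 984 of the lower had no description in the deposited annotation.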
